A study of Mus musculus with 34 samples.

Results

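The limb bud is a core of mesenchyme wrapped in a thin sheet of ectoderm, and the genes followed here are 10 that mark or build that sheet: *Trp63*, *Krt5*, *Krt14*, *Krt8*, *Krt18*, *Epcam*, *Cdh1*, *Esrp1*, *Grhl2* and *Sp8*. They were taken by gene symbol from the deposited RNA-seq table, with no filter on their values, and are 10 of its 22040 genes. Earlier results of these data were known when they were chosen. The libraries came from limb bud cells of E11.5 mouse embryos, 3 labelled *Hnrnpk* WT and 3 labelled CKO, each described as a biological replicate. In the CKO embryos, *Prrx1-Cre* recombines the *Hnrnpk* fl/fl alleles, and *Hnrnpk* encodes a protein that binds RNA and DNA. *Prrx1-Cre* is a limb mesenchyme driver that acts less completely in the hindlimb and is not known to act in the surface ectoderm. Whether the WT embryos carried Cre or floxed alleles, whether forelimbs and hindlimbs were mixed, and whether a library held 1 embryo or several are not given in the sources used here. Embryos of both sexes were used.

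The ectoderm of the early limb is a simple epithelium that turns into a basal layer under the control of p63, the product of *Trp63*. At its distal rim it thickens into the apical ectodermal ridge, which sends fibroblast growth factors to the mesenchyme below and keeps the bud growing. Keratins form filaments from 1 basic and 1 acidic partner, *Krt5* with *Krt14* in basal layers and *Krt8* with *Krt18* in simple epithelia. *Cdh1* and *Epcam* encode adhesion proteins of the epithelial surface, *Grhl2* encodes a transcription factor and *Esrp1* a splicing factor of epithelial identity, and *Sp8* encodes a zinc finger factor that the ridge needs to express *Fgf8*.

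*Krt8* and *Krt18* are neighbours. On GRCm38, *Krt8* (ENSMUSG00000049382) lies on the minus strand of chromosome 15 from 101996698 to 102004482 and *Krt18* (ENSMUSG00000023043) on the plus strand from 102028180 to 102032027, with 23.7 kb between them. *Krt5* (ENSMUSG00000061527) lies on the minus strand of the same chromosome from 101707070 to 101712898, and its partner *Krt14* (ENSMUSG00000045545) on chromosome 11. The promoters of the neighbouring partners, whose levels followed each other across libraries, and of *Krt5*, the member with the highest level, are shown from 250 bases before to 30 bases after the RefSeq start (GRCm38.p6), in the direction of transcription.
Krt8, chr15:102004313-102004592, minus strand: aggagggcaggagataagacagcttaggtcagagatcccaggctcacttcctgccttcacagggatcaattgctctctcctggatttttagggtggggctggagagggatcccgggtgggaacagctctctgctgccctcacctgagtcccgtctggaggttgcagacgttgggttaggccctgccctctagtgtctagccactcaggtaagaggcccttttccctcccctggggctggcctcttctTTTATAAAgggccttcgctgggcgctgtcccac
Krt18, chr15:102027966-102028245, plus strand: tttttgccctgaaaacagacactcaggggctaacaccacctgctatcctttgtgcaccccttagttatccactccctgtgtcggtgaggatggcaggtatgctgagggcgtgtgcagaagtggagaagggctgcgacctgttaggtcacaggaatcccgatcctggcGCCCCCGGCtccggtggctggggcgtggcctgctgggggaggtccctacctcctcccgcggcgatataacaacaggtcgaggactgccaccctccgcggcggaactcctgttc
Krt5, chr15:101712876-101713155, minus strand: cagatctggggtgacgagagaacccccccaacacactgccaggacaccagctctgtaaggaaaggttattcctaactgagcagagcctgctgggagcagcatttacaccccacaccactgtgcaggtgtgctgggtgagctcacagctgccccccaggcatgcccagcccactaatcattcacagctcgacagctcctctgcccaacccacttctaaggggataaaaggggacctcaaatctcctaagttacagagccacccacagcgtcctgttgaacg
Capitals mark matches, on either strand, to AACNGGTT (a consensus of Grainyhead-like factors), TATAAA (the TATA box) or GCCNNNGGC (a consensus of AP-2 factors). Windows of this length were at hand for 6 of the 10 members, 8 windows in all because *Sp8* has several starts. AACNGGTT was in 0 of the 8, against 1.95% of 32851 mouse windows. TATAAA was in 2 of the 8, 1 of them that of *Krt8*, where matches on both strands overlap across the start, against 13.1% of all windows. GCCNNNGGC was in 2 of the 8, 1 of them that of *Krt18*, against 15.4% of all windows. A match is a run of letters and no evidence of binding.

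The expression table gives FPKM, fragments scaled to the length of the gene and the size of the library. Levels can be set side by side between genes only as far as the length taken for each gene holds. From FPKM and exon lengths, between 17140887 and 24624444 reads per library were recovered on the listed genes. In CKO replicates 2 and 3 these totals were 1.107 and 1.033 times the recovered library size, so they are approximate. The 12305 genes whose FPKM averaged 0.5 or more over the 6 libraries were tested. Values are given in the order of replicates 1, 2 and 3. *Hnrnpk* had an FPKM of 193, 195 and 185 in the WT libraries and of 127, 142 and 135 in the CKO libraries, lower in every CKO library than in any WT library (log2 fold change -0.50, standard error 0.13, limma adjusted *p* = 0.334). Its FPKM in the CKO buds therefore stood at 0.706 of the WT level. The study floxed only part of the exons. It reported efficient loss of the protein by western blot and of *Hnrnpk* RNA by qPCR in E11.5 CKO limb buds. FPKM covers all exons, so this value does not measure the loss of the protein. Replicate 1 of both groups stood apart from the other 4 libraries along the first principal component, which held 52.6% of the variance, and the second, with 26.0%, separated the genotypes. Since ectoderm is a small share of a whole bud, fewer ectodermal cells and less RNA per ectodermal cell cannot be told apart in these libraries.

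All 10 genes were expressed in all 6 libraries and all passed the filter. *Krt5* had the highest level, with a mean of 17.4 FPKM over the 6 libraries and a range from 6.54 to 22.8, and 76.6% of tested genes had a lower mean. *Krt14* followed with 9.57 FPKM, *Krt18* with 9.32 and *Epcam* with 9.21, then *Krt8* with 7.03 and *Cdh1* with 4.18. Neighbours in this order from *Krt5* to *Cdh1* overlapped in their ranges, so the order among them is not fixed beyond the spread of the libraries. Next came *Trp63* with 1.98 FPKM, *Esrp1* with 1.77 and *Sp8* with 1.23, which overlapped in turn. The ranges of *Cdh1* and *Trp63* did not overlap, but *Krt14* in WT replicate 1 (2.08 FPKM) lay within the range of *Trp63*. *Grhl2* was lowest, from 0.5045 to 0.782 FPKM with a mean of 0.648, below all values of *Sp8*. In FPKM, the 6 keratin and adhesion genes stood above the 4 regulators within each library. Behind these values stood between 66 reads (*Krt14* in WT replicate 1) and 1144 reads (*Krt5* in CKO replicate 3). The reads were recovered from FPKM, for *Krt5*, *Krt8*, *Krt18* and *Epcam* with a searched exon length. The order in FPKM depends on exon lengths, from 1400 bases for *Krt18* to 8613 for *Grhl2*. By reads alone, *Trp63* (269 to 407) exceeded *Krt18* (179 to 352) in every library.

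**Figure D1:**
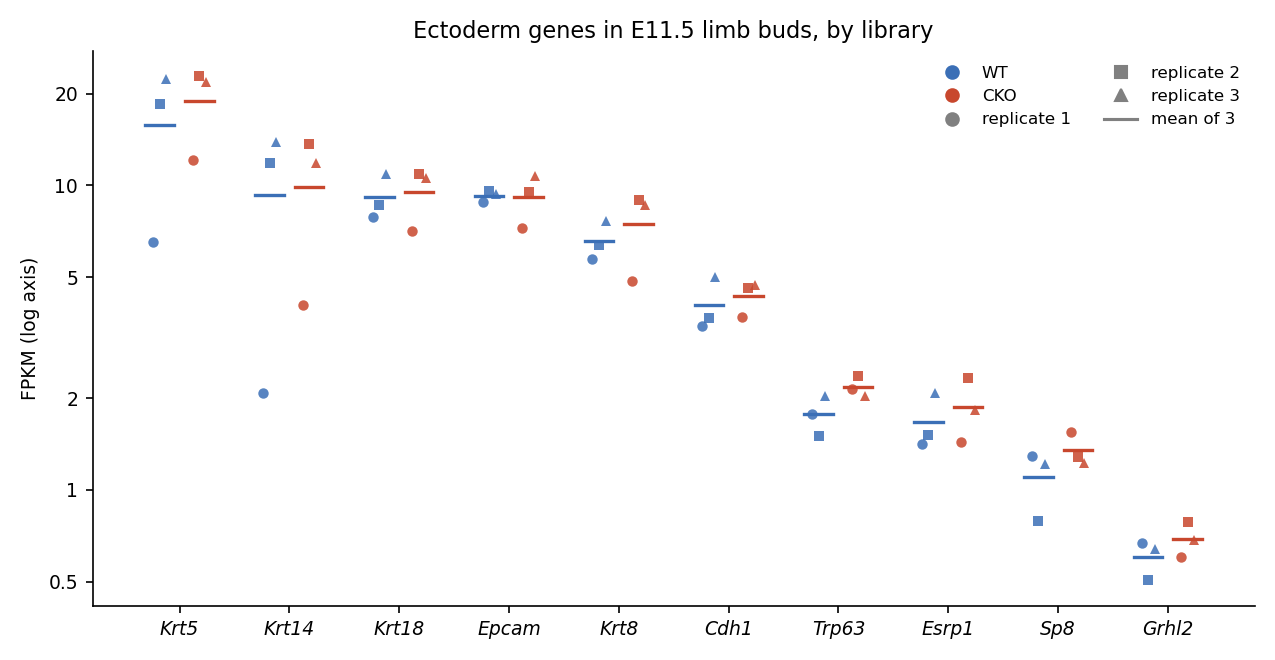
FPKM of the 10 ectoderm genes (log axis), ordered by their mean, in 3 WT (blue) and 3 CKO (red) libraries, with symbols for the replicate number and a line at the group mean. *Krt5* and *Krt14* are lowest in replicate 1 of both groups, and apart from *Trp63*, whose groups touch, the CKO points of each gene overlap the WT points.

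None of the 10 genes passed the threshold between CKO and WT buds after adjustment over all genes (limma, smallest adjusted *p* = 0.704), and 0 had an unadjusted *p* under 0.05. Among all tested genes, 0.065% had an adjusted *p* under 0.05 and 8.31% an unadjusted *p* under 0.05, and 0.666% also changed by more than a fold of 2, as 0 of the 10 did. The log2 fold change was above 0 for 9 of the 10, with a median of 0.16, while it was above 0 for 50.9% of all tested genes, with a median of 0.00479. These 9 are not 9 separate observations, since the genes moved together across the libraries. The 95% intervals of 8 genes lay within a fold of 2 in either direction, so the table bounds their change. Those of *Krt5* and *Krt14* did not in this fit, which held genotype alone. Exact two-sided permutation tests gave *p* values between 0.1, the smallest that 3 libraries against 3 allow, and 0.9.

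**Figure D2:**
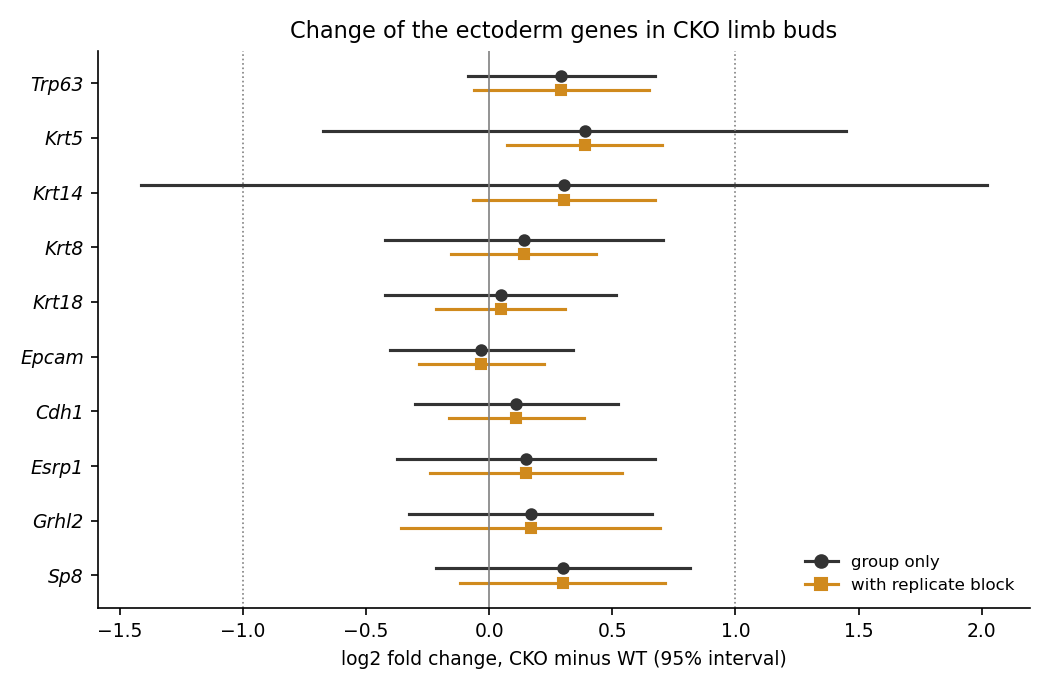
Log2 fold change (CKO minus WT) of each ectoderm gene with its 95% interval, from the limma fit with genotype alone (black circles) and with the replicate number as a block (orange squares), with dotted lines at a fold of 2. All 10 intervals of the first fit include 0, and with the block the interval of *Krt5* alone lies above 0.

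Among the transcription factors, *Trp63* (ENSMUSG00000022510, chromosome 16 from 25683763 to 25892102) came nearest to a difference. Its FPKM was 1.78, 1.504 and 2.033 in the WT libraries, and 2.14, 2.37 and 2.034 in the CKO libraries. The groups did not overlap, but only the fourth digit separated the lowest CKO from the highest WT library. It was the 1 member of the 10 with no overlap, while 5.63% of all tested genes were higher in CKO without overlap. The fold change was 1.23 (95% interval 0.942 to 1.59, limma adjusted *p* = 0.704, exact permutation *p* = 0.1). Its log2 fold change stayed above 0 in all alternatives, between 0.19 and 0.39.

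*Sp8* (ENSMUSG00000048562, chromosome 12 from 118846329 to 118852576), the ridge factor, had an FPKM of 1.29, 0.788 and 1.22 in the WT libraries and of 1.55, 1.28 and 1.22 in the CKO libraries. WT replicate 2 was the lowest, and CKO replicates 2 and 3 lay within the WT range. The fold change was 1.23 (95% interval 0.860 to 1.76, limma adjusted *p* = 0.7995). *Grhl2* (ENSMUSG00000022286, chromosome 15 from 37233036 to 37363569), which activates genes of epithelial junctions, had an FPKM of 0.670, 0.5045 and 0.639 in WT and of 0.603, 0.782 and 0.687 in the CKO libraries. The groups overlapped, with CKO replicate 1 below 2 of the 3 WT libraries. The fold change was 1.12 (95% interval 0.798 to 1.58, limma adjusted *p* = 0.882). *Grhl2* was read from 94 to 141 reads per library, and its exons share 169 bases with an antisense gene.

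*Esrp1* (ENSMUSG00000040728, chromosome 4 from 11331933 to 11386783) directs epithelial splice forms. Its FPKM was 1.42, 1.51 and 2.07 in WT and 1.44, 2.34 and 1.84 in the CKO libraries. Replicate 1 was the lowest of each group, and the groups overlapped. The fold change was 1.11 (95% interval 0.772 to 1.595, limma adjusted *p* = 0.904), and without CKO replicate 2 the log2 fold change was -0.02. Its exons share 127 bases with a noncoding gene on the opposite strand.

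The basal keratins varied more between libraries than between genotypes. *Krt5* had an FPKM of 6.54, 18.5 and 22.3 in the WT libraries and of 12.1, 22.8 and 21.9 in the CKO libraries. *Krt14* (chromosome 11 from 100203162 to 100207548) had an FPKM of 2.08, 11.8 and 13.9 in WT and of 4.05, 13.7 and 11.9 in CKO. In both genes replicate 1 was the lowest library of its group: WT replicate 1 had 0.324 of the mean of the other WT libraries for *Krt5* and 0.169 for *Krt14*, and CKO replicate 1 had 0.544 and 0.323 of the mean of the other CKO libraries. The genotypes overlapped for both. The fold change of *Krt5* was 1.31 (95% interval 0.626 to 2.73, limma adjusted *p* = 0.874), and that of *Krt14* was 1.24 (95% interval 0.375 to 4.07, limma adjusted *p* = 0.943). Leaving out WT replicate 1, with CKO replicate 1 kept, gave a log2 fold change of -0.15 for *Krt5* and -0.55 for *Krt14*. That of *Krt14* was also below 0 without CKO replicate 2 (-0.02). With replicates 2 and 3 of both groups alone, the log2 fold change was 0.14 for *Krt5* and -0.0082 for *Krt14*. *Krt5* shares 129 exon bases with a microRNA gene on the opposite strand.

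With the replicate number as a block, the interval of *Krt5* narrowed to a fold of 1.05 to 1.63 (unadjusted *p* = 0.020, limma adjusted *p* = 0.1798). It was then the 1 member of 10 with an unadjusted *p* under 0.05, a level that 18.4% of all tested genes reached, and 0 of the 10 passed the adjusted threshold that 2.81% of tested genes passed.

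The simple epithelial keratins were steadier, with the highest library of a group at most 1.84 times the lowest, against up to 6.66 times for the basal pair. *Krt8* had an FPKM of 5.75, 6.39 and 7.62 in the WT libraries and of 4.87, 8.94 and 8.64 in the CKO libraries. *Krt18* had an FPKM of 7.89, 8.59 and 10.9 in WT and of 7.06, 10.9 and 10.5 in CKO. For both genes the lowest of all 6 values was CKO replicate 1, while the other CKO libraries lay above WT replicates 1 and 2. The fold change was 1.10 for *Krt8* (95% interval 0.746 to 1.63, limma adjusted *p* = 0.915) and 1.03 for *Krt18* (95% interval 0.745 to 1.43, limma adjusted *p* = 0.971). Leaving out CKO replicate 2 turned both log2 fold changes below 0 (-0.011 and -0.07), and that of *Krt18* was also below 0 without WT replicate 1 (-0.05) or CKO replicate 3 (-0.04). The mouse annotation lists a processed copy of *Krt8*, and how reads that match both were counted is not given in the sources used here. *Krt8* also shares 101 exon bases with a noncoding gene on the opposite strand.

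Of the adhesion genes, *Cdh1* (ENSMUSG00000000303, chromosome 8 from 106603351 to 106670246), which encodes E-cadherin, had an FPKM of 3.46, 3.66 and 4.98 in the WT and of 3.71, 4.59 and 4.69 in the CKO libraries. All CKO values lay inside the WT range. The fold change was 1.08 (95% interval 0.812 to 1.44, limma adjusted *p* = 0.909). *Epcam* (ENSMUSG00000045394, chromosome 17 from 87635979 to 87651129) had an FPKM of 8.81, 9.56 and 9.39 in WT and of 7.23, 9.52 and 10.8 in the CKO libraries. The WT values lay inside the CKO range, which was wider. It was the 1 member with a log2 fold change below 0 (-0.03, a fold of 0.978, 95% interval 0.757 to 1.27, limma adjusted *p* = 0.974), which turned to 0.13 without CKO replicate 1.

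The ratios of keratin partners did not separate the genotypes. Ratios were taken of FPKM + 0.1. That of *Krt5* to *Krt14* was 3.04, 1.56 and 1.6 in the WT libraries and 2.94, 1.67 and 1.84 in the CKO libraries. The ratio was therefore higher in replicate 1 of both groups, and the genotypes differed by 0.08 on the log2 scale (exact permutation *p* = 0.6). The ratio of *Krt8* to *Krt18* was 0.732, 0.746 and 0.702 in WT and 0.693, 0.820 and 0.821 in the CKO libraries, a difference of 0.09 on the log2 scale (exact permutation *p* = 0.4). *Krt18* thus exceeded *Krt8* in every library. Set against *Cdh1*, the other 9 members differed between genotypes by -0.14 to 0.28 on the log2 scale, and set against *Epcam* by 0.08 to 0.42, with overlapping groups in all of these ratios. Apart from the 0.1 added, a ratio within a library does not depend on how libraries were scaled against each other.

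Across the 6 libraries the members rose and fell largely together. Pearson's *r* was above 0 for 39 of the 45 pairs, with a median of 0.61. It was highest for the filament partners, 0.984 for *Krt5* with *Krt14* and 0.968 for *Krt8* with *Krt18*, and among *Cdh1*, *Esrp1*, *Krt8* and *Krt18* it ranged from 0.827 to 0.968. *Sp8* stood apart, with -0.52 to *Epcam* and -0.43 to *Krt14*, but 0.785 to *Trp63*. These correlations rest on 6 libraries that share genotypes and replicate numbers, with replicate 1 of both groups apart from the rest, and are given as a description. The mean of the 10 members, each centred on its own mean of log2(FPKM + 0.1), was -0.42, -0.09 and 0.23 in the WT libraries and -0.26, 0.31 and 0.22 in the CKO libraries. CKO replicate 2 held the highest value of 6 members and WT replicate 1 the lowest of 4.

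**Figure D3:**
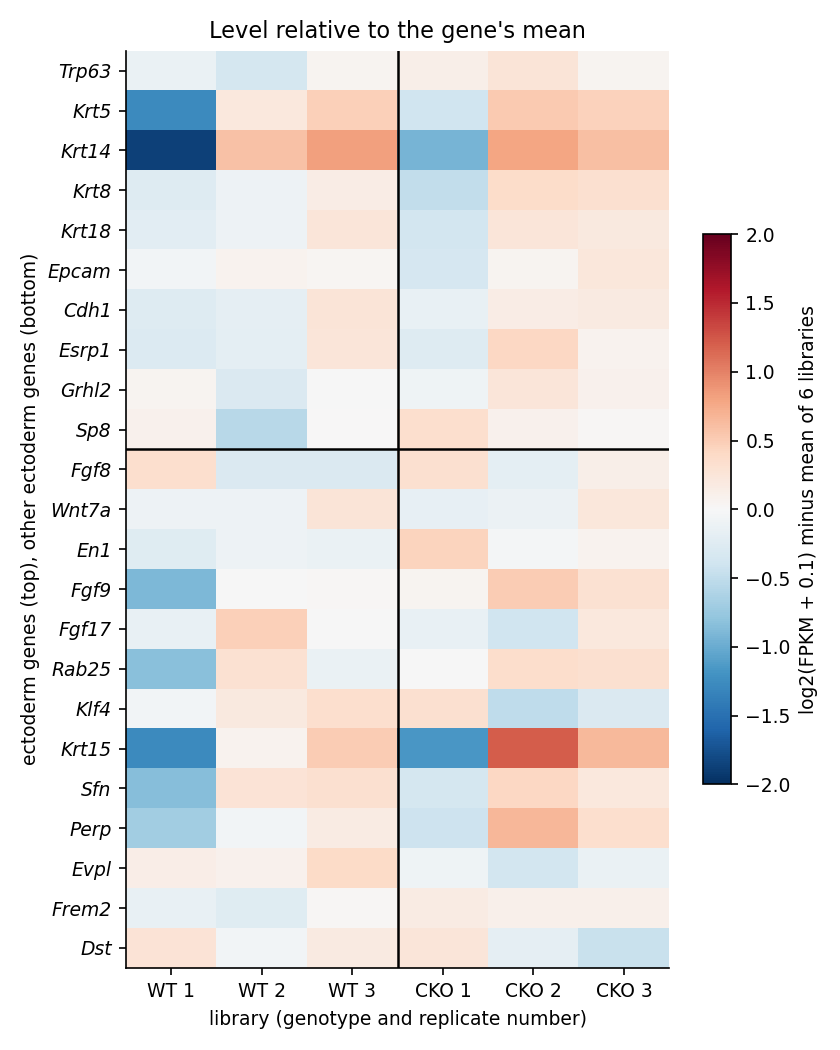
Each gene's log2(FPKM + 0.1) minus its mean over the 6 libraries, in columns for the libraries, with the 10 ectoderm genes above the line and the named genes of the other ectoderm lists below it. The deepest blue cells are *Krt14* and *Krt5* in WT replicate 1 and *Krt15* in replicate 1 of both groups, while *Sp8* and *Fgf8* are not low there.

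Replicate 1 was below replicates 2 and 3 in both groups for 7 of the 10 members and above them in both groups for 1, *Sp8*. Of all tested genes, 30.9% were below and 29.3% above in this way. Within replicate numbers, the median difference of the members (CKO minus WT, log2 scale) was 0.06 in number 1, 0.41 in number 2 and -0.01 in number 3. In number 2, 9 of the 10 members were higher in the CKO library, against 6 in number 1 and 5 in number 3. Members higher in all 3 numbers were *Trp63* and *Sp8*, 2 of 10, while 18.2% of tested genes were so, and in number 3 their differences were 0.00083 and 0.0070. The members' median of 0.16 depended on single libraries. Leaving out WT replicate 1 or CKO replicate 2 gave 0.03, and leaving out WT replicate 2 gave 0.09. Leaving out CKO replicate 1 or WT replicate 3 raised the median to 0.28 and 0.29. With replicates 2 and 3 of both groups alone, the median was 0.18.

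**Figure D4:**
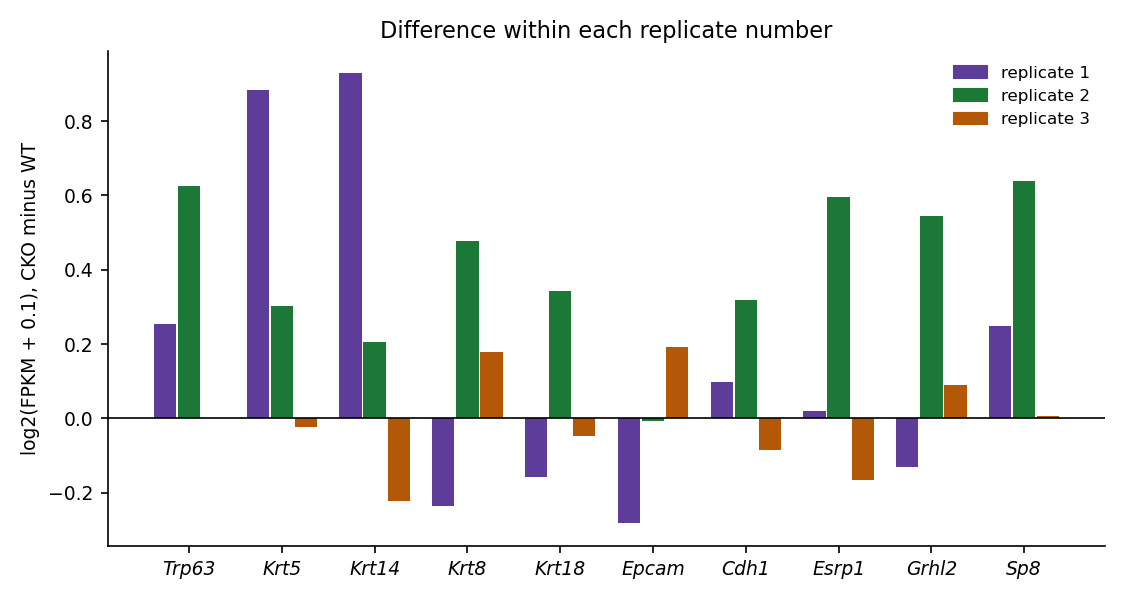
Difference in log2(FPKM + 0.1) between the CKO and the WT library of the same replicate number, as bars for numbers 1, 2 and 3, for each ectoderm gene. The bars of number 2 are above 0 for 9 of the 10 genes, those of number 1 are tallest for *Krt5* and *Krt14*, and the bar of *Trp63* in number 3 is too small to see.

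The level of red blood cell transcripts moved with the members, and so did those of some other cell types. Of the summed FPKM, 7 globin genes took 13.7%, 19.5% and 20.6% in the WT libraries and 11.7%, 32.4% and 23.5% in the CKO libraries. The libraries numbered 1 were thus lowest in globin and lowest in the mean of the members, and CKO replicate 2 was highest in both. The summed FPKM of 9 erythroid markers ranged from 37788 to 63997 in WT and from 30832 to 142935 in CKO, that of 12 limb mesenchyme markers from 498.3 to 602.5 and from 488.8 to 550.5, and that of the 10 members from 39.7 to 75.0 and from 44.8 to 77.3. The erythroid list had 9 of 9 and the limb mesenchyme list 4 of 12 log2 fold changes above 0, with 0 called in each, and with the replicate block *Tbx5*, a forelimb mesenchyme factor, passed as lower (limma adjusted *p* = 0.0073). Of the other marker lists, 6 of 6 tested muscle precursor genes and 4 of 4 of the neural crest and Schwann precursors were above 0. For the macrophages 6 of 7 and for the endothelium 0 of 8 were above 0, with 0 called in any of these lists. Among all tested genes, 50.9% were above 0 and 0.065% were called, or 2.81% with the block. The summed FPKM of 7 macrophage markers was 14.3, 17.7 and 24.1 in WT and 17, 28.5 and 21.1 in CKO. By this sum the libraries stood in the same order as by the members' mean. Sums of muscle precursor and of neural crest and Schwann precursor markers were also lowest in WT replicate 1 and highest in CKO replicate 2. The endothelium sum was highest in WT replicate 1 and the limb mesenchyme sum in WT replicate 2. The part of these cells in the members' values was not tested.

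Keratins and E-cadherin are also made by other epithelia, so markers of 2 of these were read. Of 7 mesothelium markers, 4 failed the filter, among them *Msln*, listed at 0 in all 6 libraries. *Upk1b*, *Bnc1* and *Gpm6a* passed it, with 0.408 to 1.97, 0.991 to 1.25 and 0.431 to 0.975 FPKM in WT. In CKO they had 0.4997 to 1.59, 0.956 to 1.155 and 0.4296 to 0.926 FPKM. The sum of the 7 mesothelium markers ranged from 2.54 to 4.33 FPKM in WT and from 2.495 to 3.48 in CKO. It was lowest in replicate 1 of each group. Of 7 endoderm markers, *Nkx2-1* was listed at 0 in all 6 libraries and 6 failed the filter. *Afp* passed it, with 0.0659 to 1.55 FPKM in WT and 0.115 to 0.543 in CKO. The sum of the 7 endoderm markers ranged from 0.840 to 2.002 in WT and from 0.417 to 0.916 in CKO. Both sums were below the level of *Krt8* alone in every library. A sum of marker levels does not give the keratin output of those cells, and their part in the members' values was not tested.

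Beyond the 10 members, 5 lists held 77 further genes chosen for a role in limb ectoderm or other epithelia. Which cells of the bud made these transcripts was not tested. Of the 77 genes, 60 were tested between genotypes. None passed the adjusted threshold, with or without the block, and 0 had an unadjusted *p* under 0.05. Their median log2 fold change was 0.16, with 40 above and 20 below 0.

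Among 13 tested signals and regulators of the ectoderm and ridge, 7 were above and 6 below 0, with a median of 0.05. *Fgf8*, the main ridge growth factor, had an FPKM of 10.6, 6.87 and 6.89 in WT and of 10.5, 7.31 and 9.10 in the CKO libraries. It was highest in replicate 1 of both groups, where the basal keratins were lowest. It did not differ between the genotypes beyond the spread (log2 fold change 0.16, limma adjusted *p* = 0.890). The study itself reported that *Fgf8* was barely detectable by whole-mount in situ hybridization in CKO forelimbs at E11.5. By qPCR of E11.5 limb buds it also reported lower *Fgf8* in CKO. The FPKM do not show this loss, and why the assays differ was not tested. *Wnt7a*, the dorsal ectoderm signal, was at 0.892, 0.896 and 1.17 in WT and 0.854, 0.889 and 1.15 in CKO, with a log2 fold change of -0.03 (limma adjusted *p* = 0.980). *En1*, which specifies ventral ectoderm, was at 0.846, 0.939 and 0.926 in WT and at 1.43, 0.995 and 1.07 in CKO. The *En1* values did not overlap, yet the log2 fold change of 0.32 did not pass (limma adjusted *p* = 0.723). *Fgf9*, a further growth factor of the ridge, had the highest log2 fold change of the list, with 0.883, 1.73 and 1.76 FPKM in WT and 1.81, 2.48 and 2.17 in CKO, without overlap (log2 fold change 0.58, limma adjusted *p* = 0.635, and adjusted *p* = 0.095 with the block). *Fgf17*, another ridge growth factor, had the lowest log2 fold change (-0.22, limma adjusted *p* = 0.881).

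The 14 tested epithelial regulators had a median of 0.17 with 11 above 0. *Rab25*, a small GTPase of epithelial membrane traffic, had the highest (0.43, limma adjusted *p* = 0.792) and *Klf4*, a barrier factor, the lowest (-0.32, limma adjusted *p* = 0.773), with 10.2, 12.1 and 13.4 FPKM in WT and 13.3, 7.40 and 8.61 in CKO. In *Klf4*, CKO replicates 2 and 3 were below every WT library and CKO replicate 1 was not. The further keratins, listed together with *Sfn*, an epithelial 14-3-3 protein, were above 0 in 6 of 6 tested genes, from 0.18 for *Sfn* to 0.46 for *Krt15* (limma adjusted *p* = 0.922 and 0.898). *Krt15*, a basal keratin, had 0.283, 0.875 and 1.22 FPKM in WT and 0.313, 2.04 and 1.35 in CKO, again lowest in replicate 1 of both groups.

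Of 17 tested junction genes, 11 were above 0, with a median of 0.13. *Perp*, a desmosome protein, had the highest value (0.39, limma adjusted *p* = 0.814, 4.92, 7.71 and 8.93 FPKM in WT and 5.97, 12.7 and 10.1 in CKO). *Evpl*, which encodes envoplakin, had the lowest (-0.40, limma adjusted *p* = 0.654). The *Evpl* values, 0.904, 0.864 and 1.08 in WT and 0.762, 0.605 and 0.729 in CKO, did not overlap. Genes of adhesion to the basement membrane were evenly split, 5 of 10 above 0 with a median of 0.06. *Frem2*, which anchors the epithelium to the dermis, was at 2.101, 1.96 and 2.39 in WT and at 2.65, 2.54 and 2.53 in CKO, without overlap (0.25, limma adjusted *p* = 0.701). *Dst*, a linker of keratin filaments, had the lowest value (-0.26, limma adjusted *p* = 0.827). Over all 60 genes, 5 had no overlap between the groups, a share to be read against the 14.5% of all tested genes.

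**Figure D5:**
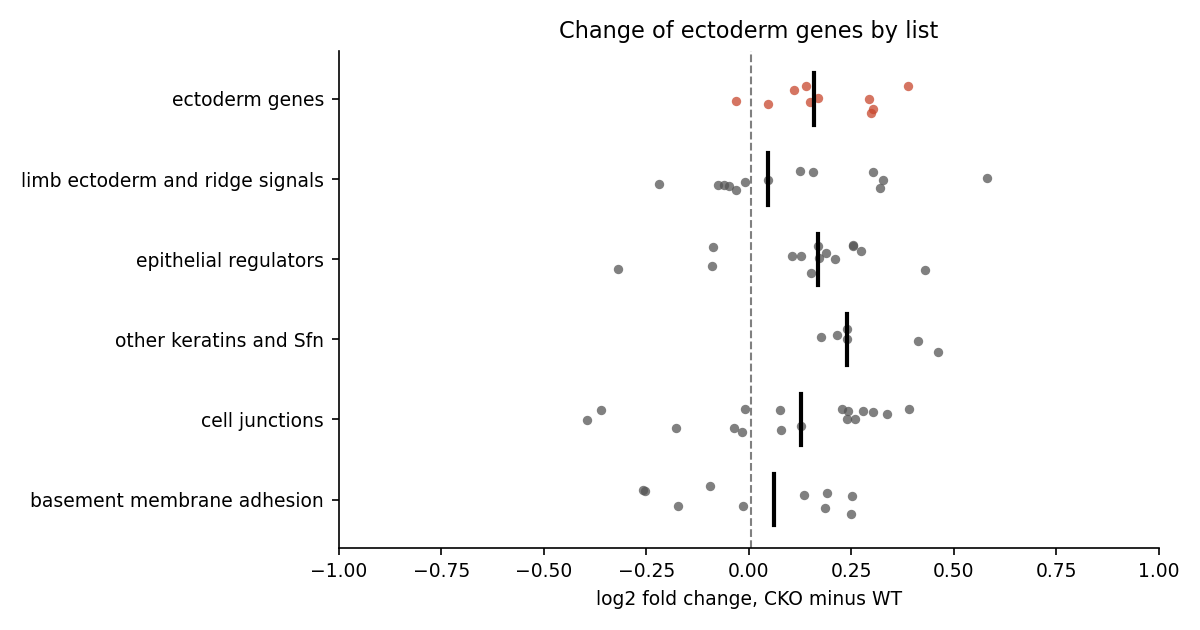
Log2 fold change (CKO minus WT) of each tested gene of the 10 ectoderm genes (red) and of 5 further ectoderm lists (grey, shifted at random in height), with a bar at each median and a dashed line at the median of all tested genes. The points of each list spread over both sides of 0 except those of the keratins and *Sfn*, and 0 of them passed the adjusted threshold.

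The 5 tested genes outside the list whose levels followed the members' mean most closely over the 6 libraries were *Ccdc112* (Pearson's *r* = 0.998), *Acer3* (0.994), *St3gal1* (0.989), *Nr3c1* (0.987) and *2610002M06Rik* (0.985). *Ccdc112* had an FPKM of 6.32, 7.06 and 7.66 in WT and of 6.59, 7.94 and 7.72 in the CKO libraries, with WT replicate 1 lowest and CKO replicate 2 highest as in the members' mean. None of the 5 is on any of the ectoderm or marker lists. They are the top of 12305 tested genes over 6 points, and the likeness is a description.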

How the data were processed

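RNA-seq of E11.5 limb bud cells, 3 WT and 3 CKO libraries made with a stranded mRNA kit, was analysed. The authors deposited 1 table of FPKM for 22040 genes. Per the submitters' processing notes, cutadapt 2.5, HISAT2 2.1.0, featureCounts 1.6.3 and mm10 were used in the series. The annotation and the strand setting of the counting are not given in the sources used here. With GENCODE vM21 exon lengths (99.5% of identifiers found), 92.6% of genes came out as whole reads in all 6 libraries within 0.1 reads, from which the depth was taken. The other assays of the study were not analysed here.

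The FPKM were used as deposited. Log2(FPKM + 0.1) values of genes averaging 0.5 FPKM or more were compared by limma 3.58.1 in R 4.3.3 (lmFit, eBayes with a trend), with Benjamini-Hochberg adjustment over all 12305 genes at 0.05. A fold on this scale understates changes of low genes. Single genes and ratios were also compared by exact two-sided permutation tests. The *p* values measure only the spread between these libraries, whose separate origin is stated no further than as biological replicates. The members, lists and tests were chosen with earlier results of these data known. Named genes were all members, *Hnrnpk*, *Fgf8*, *Wnt7a*, *En1*, the highest and lowest log2 fold change of each list, any gene of the lists past the threshold, and the 5 genes most like the members' mean. *Tbx5*, *Msln*, *Upk1b*, *Bnc1*, *Gpm6a*, *Nkx2-1*, *Afp* and *Krt17* were named after their values were seen.

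Deviations from the group mean over tested genes correlated at 0.636, 0.443 and 0.266 between the WT and the CKO library numbered 1, 2 and 3. Each exceeds 0.1, and the number was therefore used as a block in alternative fits, while the main fit held genotype alone. The numbers do not mark the closest libraries throughout. Between WT replicate 2 and CKO replicate 3 *r* was 0.495, and between WT replicate 3 and CKO replicate 2 it was 0.307. Alternatives were other pseudocounts, filters and scalings, eBayes without the trend, the replicate number as a block, limma voom on the recovered reads, and fewer libraries.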

Additional observations from a re-analysis of the deposited data

How the results depend on the processing

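Under 17 alternatives, 0 of the 10 members passed the adjusted threshold, and their median log2 fold change stayed between 0.03 and 0.29. The direction of 4 members, *Trp63*, *Cdh1*, *Grhl2* and *Sp8*, was kept in every alternative that tested them, *Grhl2*, *Fgf17*, *Rab25*, *Wnt7a* and *Evpl* not being tested at a mean FPKM of at least 1. With replicates 2 and 3 alone *Krt14* had -0.0082 and *Epcam* 0.093, with limma voom on read numbers recovered from FPKM and the replicate block *Epcam* had 0.0034, and with quantile normalization *Wnt7a* had 0.035. Leaving out each library in turn gave log2 fold changes from -0.15 to 0.72 for *Krt5*, from -0.55 to 0.85 for *Krt14*, from -0.011 to 0.42 for *Krt8*, from -0.066 to 0.25 for *Krt18*, from -0.15 to 0.13 for *Epcam*, from -0.016 to 0.32 for *Esrp1*, from -0.062 to 1.16 for *Krt15*, from -0.20 to 0.40 for *Sfn*, from -0.15 to 0.088 for *Wnt7a* and from -0.17 to 0.40 for the log2 ratio of *Krt5* to *Krt14*. Without a change of sign it ranged from 0.19 to 0.39 for *Trp63*, 0.011 to 0.27 for *Cdh1*, 0.062 to 0.25 for *Grhl2*, 0.096 to 0.42 for *Sp8*, 0.035 to 0.36 for *Fgf8*, 0.28 to 0.74 for *Fgf9*, 0.18 to 0.42 for *En1*, 0.12 to 0.69 for *Rab25*, 0.14 to 0.70 for *Perp*, 0.19 to 0.33 for *Frem2*, -0.38 to -0.03 for *Fgf17*, -0.56 to -0.15 for *Klf4*, -0.45 to -0.31 for *Evpl* and -0.44 to -0.10 for *Dst*.

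Over all genes, 7 were higher and 1 lower at the adjusted threshold. The replicate block gave 139 and 207, voom on recovered reads with the block 258 and 396, and replicates 2 and 3 alone 867 and 984. Quantile normalization gave 13 higher and no filter 0 lower. With 1 library left out the counts ranged from 1 to 10 higher and from 0 to 13 lower. At a fold of 2 with unadjusted *p*, 52 were higher and 30 lower, against 30 and 8 with a pseudocount of 0.5, 12 and 3 with a pseudocount of 1, 103 and 59 without the filter, 28 and 19 at a mean FPKM of at least 1, 82 and 102 with replicates 2 and 3 alone, and 47 lower with voom and the block. Leave-one-out counts were 46 to 113 higher and 24 to 81 lower. The block changed no call of a member or of the other ectoderm genes. With replicates 2 and 3 alone, 4 of the latter passed, *Klf4* (-0.67) and *Krt17* (-0.54) lower and *Krt15* (0.64) and *Perp* (0.45) higher, on 2 libraries per group. These are 4 of 60 (6.67%), while 15.0% of all tested genes passed in that fit. The cause of these changes was not tested. Depth limits *Grhl2* and *Sp8*, at 86 to 141 reads per library, and *Krt14* in WT replicate 1, at 66.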
